A study of Mus musculus with 52 samples.

Results

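The comparison set mouse extended pluripotent stem cells (EPSCs) that received the GSK3 inhibitor CHIR-99021 together with CD1530 directly against EPSCs that received CHIR-99021 together with PD0325901. CD1530 is a selective agonist of the retinoic acid receptor RARγ, and PD0325901 is an inhibitor of MEK, the kinase that activates ERK. The members were the 2 libraries of each arm that the labels name for these treatments, 4 of the 52 libraries of the series. All were wild-type cells of the line mc6-1/Mu-mClover3-10# collected after 2 days. The labels give no dose and no culture medium for this step, and they do not say if replicates were grown separately. The p-values therefore measure spread between libraries, estimated over all 52 of the series, and may not cover the spread between cultures. Because every cell in both arms also received CHIR-99021, 2 libraries of EPSCs given CHIR-99021 alone (CHIR) served as the shared starting point. Further groups of 2 libraries each were used for reading a result: EPSCs given CHIR-99021 and Elvitegravir for the same time, S1 (EPSCs given all the small molecules together in totipotency medium over 2 days), and aggregates of S1 cells kept for 1 day in 4C-64C medium lacking CD1530 (S2 without CD1530) or containing it (S2). Messenger RNA was counted per gene. Levels are given as CPM, counts scaled to a common library size of 1e6, always for both libraries of a group, so that a difference can be read against the spread between them.

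Retinoic acid receptors sit on DNA as partners of RXR and switch on their targets when a retinoid binds, among them the enzymes that break retinoic acid down again and the Hox genes. In the early mouse embryo, epiblast cells release FGF4, and neighbouring cells that respond through the MEK-ERK cascade become primitive endoderm, which makes GATA6, SOX17 and a laminin-rich basement membrane. Blocking MEK holds cells in the Nanog-expressing state instead, and retinoic acid drives several pluripotent cell lines towards endoderm or neural fates.

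The 2 arms held 35530501 and 45803006 counts with CD1530 and 106989013 and 23928947 with PD0325901, and CHIR held 45335962 and 26258749. The libraries of the CD1530 arm lay close together, with a standard deviation of the log2 difference between libraries of 0.198. That spread was 0.570 in the PD0325901 arm and 0.625 in CHIR. The test shared its estimate of spread over all groups, so calls that use PD0325901 or CHIR can be less certain than their p-values state. Markers of pluripotent stem cells (Pou5f1, Nanog, Zfp42, Sall4, Lin28a and Dppa5a) summed to 1304 and 1326 CPM with CD1530, to 1947 and 1568 CPM with PD0325901, and to 1203 and 1009.8 CPM with CHIR, and none of the 6 was without a count. A list of 18 feeder fibroblast genes, all with counts, summed to 239.9 and 240.3 CPM with CD1530, to 314 and 263 CPM with PD0325901, and to 183 and 159 CPM with CHIR. Against CHIR, 6 of these 18 rose with CD1530 and 5 rose with PD0325901; between the arms 1 was higher and 2 were lower with CD1530. Their part in the results below was not tested. In bulk RNA, fewer cells of a type and less RNA per cell cannot be told apart.

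The 2 arms differed widely. Most listed genes of extraembryonic endoderm were higher with CD1530, and Nanog, Klf2, Fgf4 and 8 of 18 Nodal and Activin pathway genes were higher with PD0325901. Of 25056 tested genes, 2136 (8.52%) were higher and 2012 (8.03%) were lower with CD1530 than with PD0325901, 4148 (16.6%) in all. A gene was called at a Benjamini-Hochberg adjusted p below 0.05 in edgeR's quasi-likelihood test with a log2 fold change of at least 1. In 4119 of the 4148 called genes the libraries of the arms did not overlap. Called genes were chosen for differing between these same libraries, and the share over all tested genes was not counted, so this is a description. A further 3899 tested genes had no count in either arm, so the called genes made up 19.6% of the 21157 that could be judged. Without the second libraries of CHIR and of the PD0325901 arm, which departed from the first libraries in a like way, 1675 genes were higher and 1456 were lower. Set against CHIR, CD1530 changed 4172 genes (16.7%), of which 2441 (9.74%) rose and 1731 (6.91%) fell. PD0325901 changed 1129 genes (4.51%), of which 819 (3.27%) rose and 310 (1.24%) fell.

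Joining both comparisons with CHIR sorted the genes into 4 classes. Both comparisons share the CHIR libraries, so a stray value there moves a gene the same way in each. CD1530 raised and PD0325901 lowered 75 genes (0.299%), and CD1530 lowered and PD0325901 raised 81 genes (0.323%). Both agents raised 464 genes (1.85%) and both lowered 79 (0.315%). A further 3473 genes were called with CD1530 and not with PD0325901, and 430 with PD0325901 and not with CD1530. The class of 75 became 151 without the first PD0325901 library, with 60 genes in common, and the class of 464 became 737 without the first CHIR library, with 317 in common. When CD1530 was set against CHIR and PD0325901 against the EPSCs given CHIR-99021 and Elvitegravir, which called 1655 genes (6.61%) with PD0325901 and left no shared library, the classes held 128, 206, 440 and 97 genes in the same order. Of the 75, 81, 464 and 79 genes, 64, 68, 380 and 63 were among them.

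**Figure D1:**
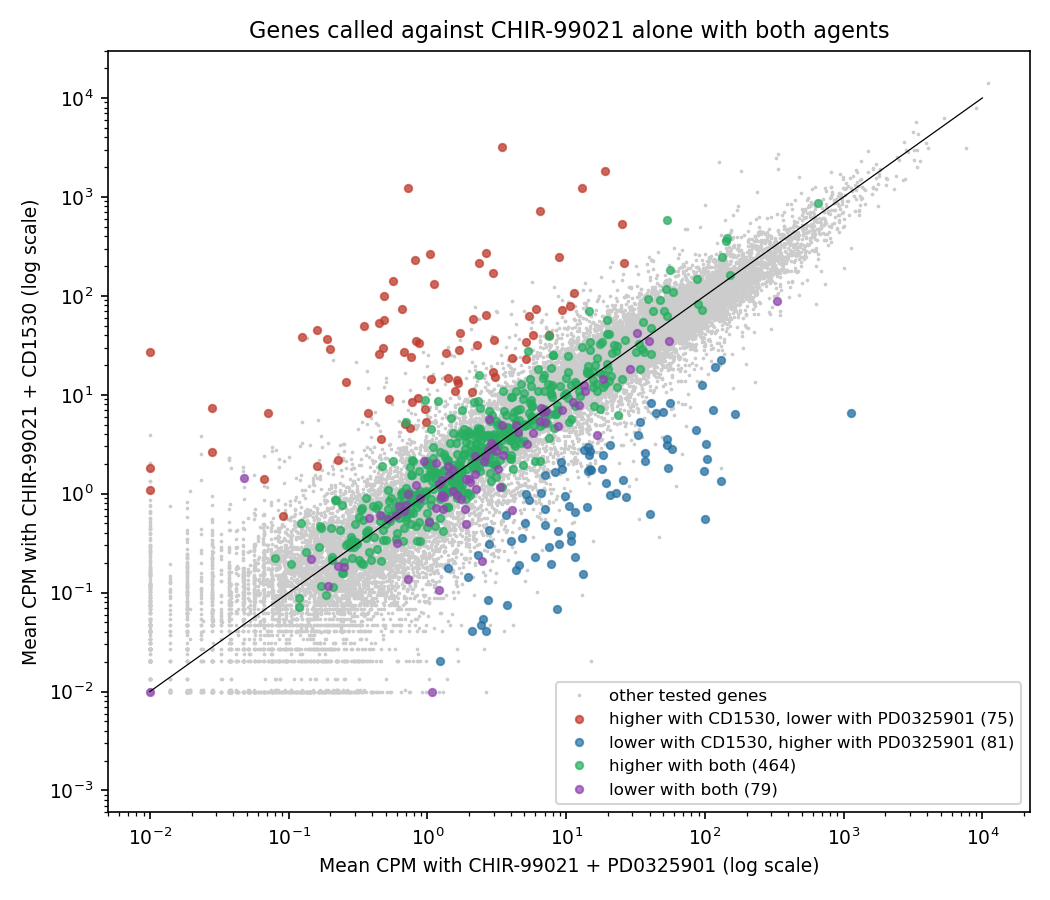
Mean CPM of each tested gene with CHIR-99021 and CD1530 (vertical, log scale) against its mean CPM with CHIR-99021 and PD0325901 (horizontal, log scale), each the mean of 2 libraries, with values under 0.01 CPM drawn at 0.01. The 75 red and 81 blue genes, which the agents moved in opposite directions against CHIR-99021 alone, lie far from the diagonal, whereas most of the 464 green genes that rose with both lie along it.

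The plot of mean levels in the 2 arms shows how the classes differ in size of effect. Genes raised by CD1530 and lowered by PD0325901 had a median level of 32.0 CPM with CD1530, 0.982 CPM with PD0325901 and 4.30 CPM with CHIR. Those lowered by CD1530 and raised by PD0325901 had medians of 1.01 CPM with CD1530, 13.5 CPM with PD0325901 and 5.48 CPM with CHIR. Either class differs between the arms by its choice, so these medians are descriptions. In the class of 464 the medians were 2.48 CPM with CD1530 and 2.17 CPM with PD0325901, against 0.365 CPM with CHIR. In a direct comparison 60 of the 464 were higher and 15 lower with CD1530, and 389 were not called.

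**Figure D2:**
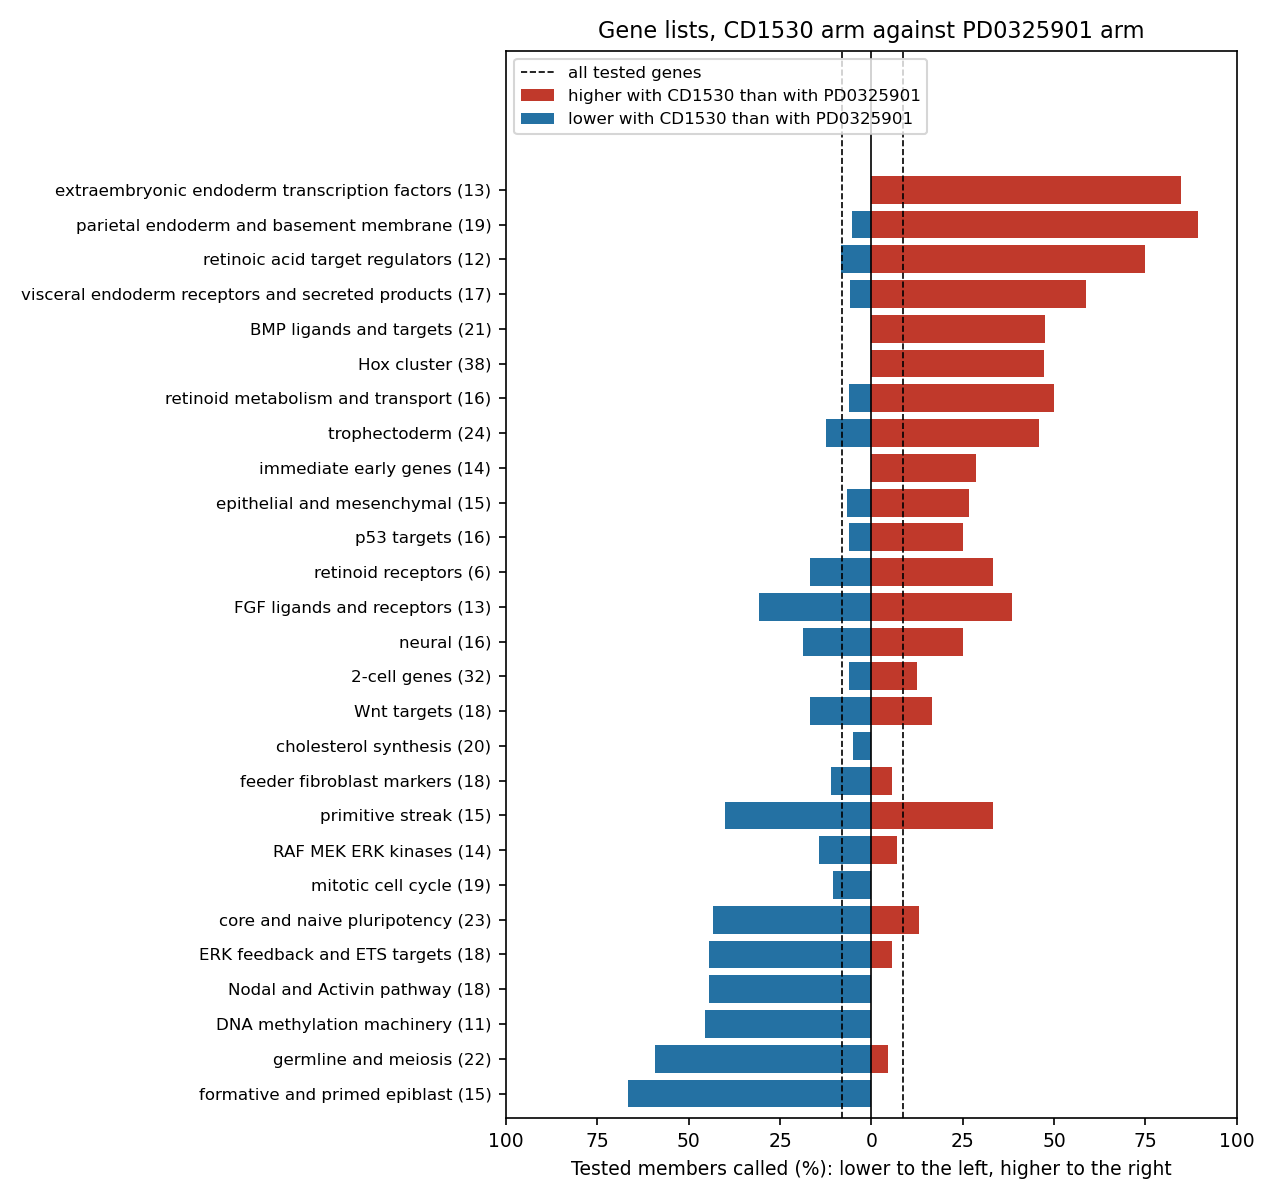
For 27 gene lists, the percentage of tested members called higher (red, right) or lower (blue, left) with CD1530 than with PD0325901; the number of tested members stands in brackets and dashed lines mark the shares over all tested genes, 8.52% and 8.03%. Endoderm, Hox and retinoid lists lie to the right, and germline, formative epiblast and ERK feedback lists lie to the left.

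Of the 27 lists, the 3 of extraembryonic endoderm had the highest median differences between the arms. Across these lists, of transcription factors, of visceral endoderm receptors and secreted products, and of parietal endoderm and basement membrane, 38 of 49 members were higher and 2 were lower with CD1530. The median log2 fold change over the 49 was 3.32, and over all tested genes it was 0.00. Against CHIR, 37 of the 49 rose and 2 fell with CD1530, whereas 3 rose and 19 fell with PD0325901. Of the 75 genes that CD1530 raised and PD0325901 lowered, 19 belonged to these lists. The summed level of the 49 genes was 23257 and 23151 CPM with CD1530 and 2612 and 2221 CPM with PD0325901, against 3241 and 2463 CPM with CHIR.

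Among the transcription factors, Gata6, which starts the primitive endoderm programme, stood at 141 and 139 CPM with CD1530, at 0.596 and 0.542 CPM with PD0325901 and at 11.8 and 11.3 CPM with CHIR. The groups did not overlap: CHIR lay between the arms, far from both. The log2 fold change between the arms was 7.90 ± 0.19 (SE; adjusted p = 1.4e-27, edgeR's quasi-likelihood test). Gata4, its close relative, had 220.1 and 212 CPM with CD1530, 2.46 and 2.24 CPM with PD0325901 and 16.6 and 9.67 CPM with CHIR. Sox17, an endoderm regulator downstream of the GATA factors, had 101 and 97.6 CPM with CD1530, 0.503 and 0.464 CPM with PD0325901 and 3.12 and 2.81 CPM with CHIR. Gata4 and Sox17 fell into the same order as Gata6, with log2 fold changes between the arms of 6.50 ± 0.20 and 7.65 ± 0.24. Sox7, Foxa2 and Hnf4a, further endoderm regulators, followed with log2 fold changes of 7.04 ± 0.27, 6.12 ± 0.27 and 5.42 ± 0.35, and each of these 6 factors rose with CD1530 and fell with PD0325901 against CHIR. Foxq1, a forkhead factor, moved alike (7.77 ± 0.31), but 66.1% of its exonic bases are shared with another annotated gene, A530084C06Rik, so its reads could not be assigned with certainty. Between 11.8% (Nphs1) and 33.0% (Phlda1) of exonic bases were shared in Zfp703, Lef1, Pou5f1, Tub, Sox17, Meis1 and Ccnd1 too, whose values carry the same limit in part. Gata6os, a non-coding gene that RefSeq also lists as 1010001N08Rik, had 38.7 and 37.2 CPM with CD1530, 0.0932 and 0.155 CPM with PD0325901 and 2.69 and 3.8 CPM with CHIR. It lies on the opposite strand and overlaps the start of Gata6, and as no source says whether counting used strand, reads of the overlap cannot be told apart.

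Structural and surface products of endoderm led the ranking of fold changes, with Cubn, Habp2 and Lama1 as its first 3 genes at 10 CPM or more and without predicted names. Lama1, the laminin α1 chain of the embryonic basement membrane, reached 3191 and 3226 CPM with CD1530, against 3.2 and 3.64 CPM with PD0325901 and 104 and 81.7 CPM with CHIR. Its log2 fold change between the arms was 9.90 ± 0.26 (adjusted p = 1.1e-26, edgeR's quasi-likelihood test). Cubn, the cubilin receptor through which visceral endoderm takes up nutrients, stood at 1199 and 1239 CPM with CD1530, at 0.522 and 0.929 CPM with PD0325901 and at 144 and 147 CPM with CHIR, a log2 fold change of 10.93 ± 0.41 between the arms. In both genes the PD0325901 libraries were close to empty while CHIR held an intermediate level. The partners of cubilin, Amn and Dab2, differed by 6.85 ± 0.26 and 6.84 ± 0.16 on the log2 scale, and Lrp2, the megalin receptor, by 2.05 ± 0.19; Lrp2 was not called with PD0325901 against CHIR (-0.55 ± 0.18). Col4a1, a collagen IV chain, had 1739 and 1902 CPM with CD1530 and 24.4 and 13.5 CPM with PD0325901, against 76.2 and 33.9 CPM with CHIR. Both it and its partner Col4a2 fell with PD0325901 against CHIR (-1.51 ± 0.21 and -1.68 ± 0.15), but without the first CHIR library Col4a1 fell by 0.80 only, short of the required fold. Lamb1, which pairs with Lama1, rose with CD1530 (3.26 ± 0.12), and its change with PD0325901 was under the required fold (-0.88 ± 0.11; -1.01 and called without the second libraries of both CHIR and PD0325901).

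Habp2, a secreted protease, counted 2314 reads over both CD1530 libraries and 2 over both PD0325901 libraries, a ratio of 1795 after scaling with a 95% counting interval from 496 to 14829. Ttr, the transthyretin carrier made by visceral endoderm, had 150 counts with CD1530 and none with PD0325901, so it was at least 77.6-fold higher, taking a floor of 3 counts over the group. Srgn, a proteoglycan core protein of parietal endoderm, had 259.6 and 264 CPM with CD1530, 0.447 and 1.63 CPM with PD0325901 and 13.9 and 18 CPM with CHIR. Pdgfra, the receptor that marks primitive endoderm, differed by 6.67 ± 0.18, and Ihh, a hedgehog ligand of visceral endoderm, by 7.46 ± 0.44. Aqp8, a water channel, and Pdzd3, a scaffold protein, differed by 8.88 ± 0.52 and 7.04 ± 0.47. Among the 12 genes with the highest fold changes between the arms, without predicted genes and genes under 10 CPM in both, Aqp8 was the exception in having no call with PD0325901 against CHIR (-2.41 ± 0.87, adjusted p = 0.073 in edgeR's quasi-likelihood test); it was called without the second PD0325901 library (-3.40) or the second CHIR library (-2.83).

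**Figure D3:**
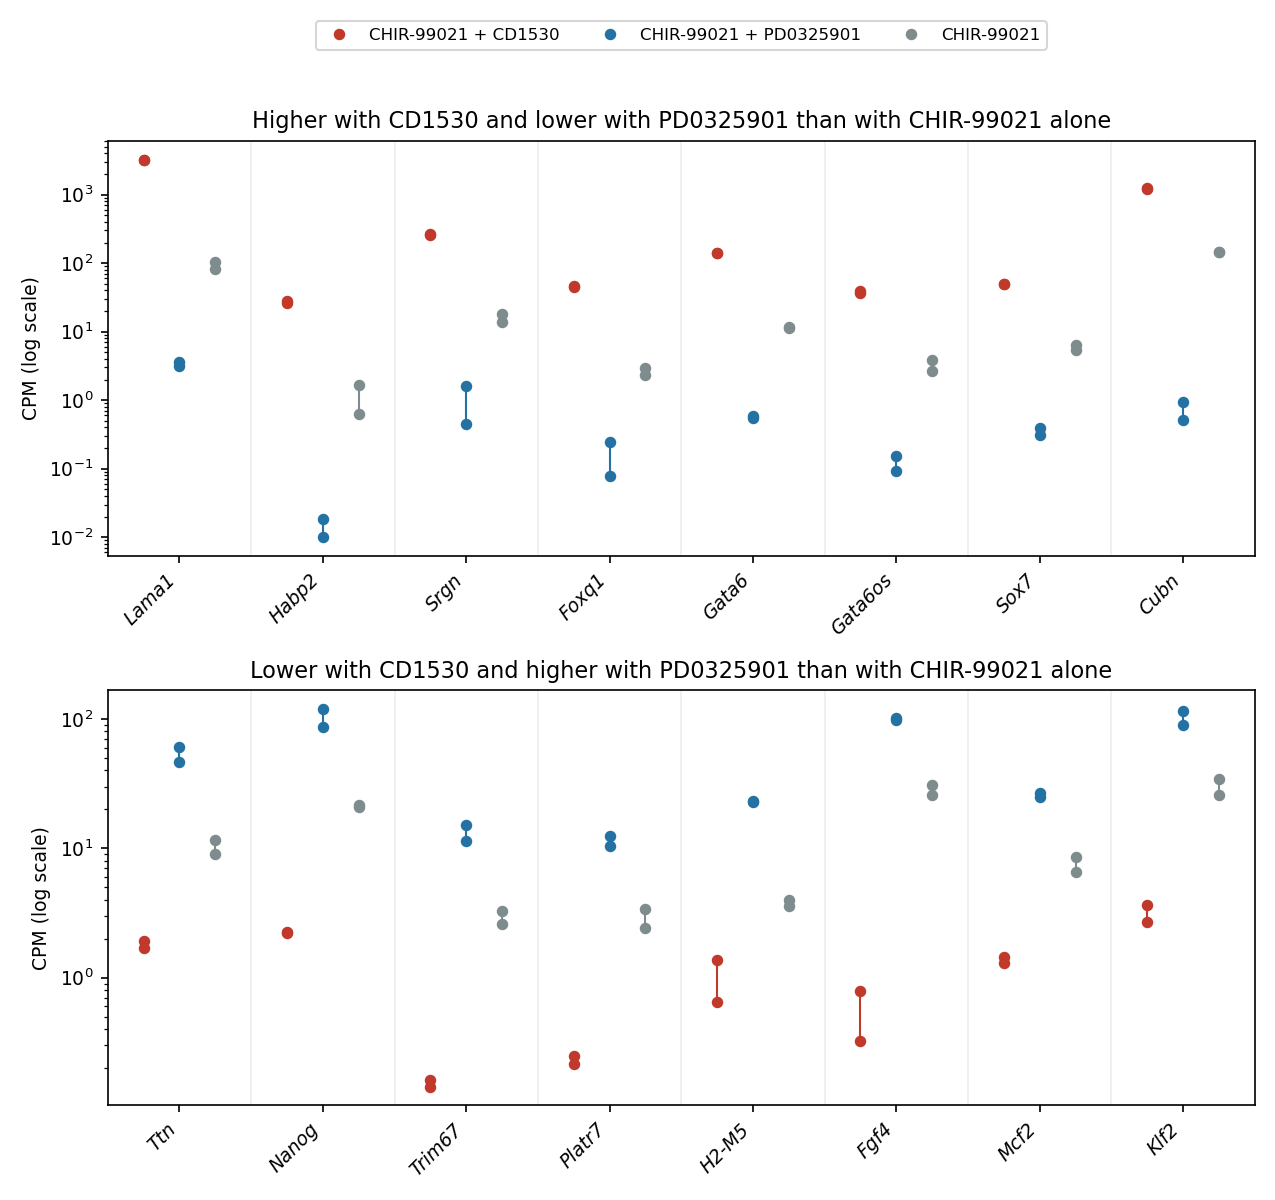
CPM on a log scale in both libraries (points joined by a line) of the CHIR-99021 and CD1530, CHIR-99021 and PD0325901, and CHIR-99021 groups, for the 8 genes with the largest change in each opposite class. In the upper panel the CHIR-99021 values lie between high CD1530 and low PD0325901 values, and in the lower panel between low CD1530 and high PD0325901 values; a value of 0 is drawn at 0.01 CPM.

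In S1, which received all the small molecules, the summed level of the endoderm genes lay far below that of the CD1530 arm. Lama1 had 17.3 and 19.5 CPM in S1 and Cubn had 2.17 and 3.45 CPM. Over the class of 75 the median S1 level was 2.63 CPM, and S1 lay nearer to the PD0325901 arm in 60 genes and nearer to the CD1530 arm in 15, by distance between mean log2 levels. Of these 75 genes only 19 belong to the endoderm lists, and nearness over all tested genes was not counted. The summed level of the 49 endoderm genes in S1 was 4661 and 4422 CPM. That was above the PD0325901 arm (2612 and 2221 CPM) and CHIR (3241 and 2463 CPM), and below the CD1530 arm (23257 and 23151 CPM).

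The reverse pattern, lower with CD1530 and higher with PD0325901 than with CHIR, included Nanog, Fgf4 and Klf2, which ranked second, sixth and eighth in it by the smaller of both changes. Nanog, the factor that opposes GATA6 in the early embryo, had 2.2 and 2.26 CPM with CD1530 and 119 and 87.1 CPM with PD0325901, against 21.7 and 20.7 CPM with CHIR. Fgf4, the epiblast ligand that acts through MEK and ERK on primitive endoderm, had 0.322 and 0.781 CPM with CD1530 and 101 and 98.5 CPM with PD0325901, against 25.6 and 30.8 CPM with CHIR. Neither gene overlapped between any of these groups. The log2 fold change between the arms was -5.53 ± 0.14 for Nanog, and -7.42 ± 0.21 for Fgf4, the lowest of all called genes with 10 CPM or more in either arm and no predicted name. Klf2, another naive factor, went the same way (2.69 and 3.66 CPM with CD1530 and 114 and 89.2 CPM with PD0325901, against 34.2 and 25.7 CPM with CHIR). Its log2 fold change between the arms was -4.99 ± 0.15 (adjusted p = 5.2e-25, edgeR's quasi-likelihood test).

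The list of core and naive pluripotency genes did not move as a block. Of 23 tested members 3 were higher and 10 lower with CD1530. Against CHIR, 5 rose and 8 fell with CD1530, and 8 rose and none fell with PD0325901 (13 rose without the first CHIR library). Klf4 and Klf5, which with Klf2 form the naive Krüppel-like set, were both higher with CD1530: Klf4 had 55 and 54.4 CPM with CD1530 and 9.77 and 3.33 CPM with PD0325901, against 6.37 and 2.67 CPM with CHIR. With PD0325901 Klf4 was not called against CHIR, but it was without the first CHIR library (1.43) or the second PD0325901 library (1.06). Klf5 had 257 and 239.5 CPM with CD1530 and 47.3 and 31.7 CPM with PD0325901, against 50.7 and 38.4 CPM with CHIR. Within 1 family, then, Klf2 was lower and Klf4 and Klf5 were higher with CD1530. Tbx3, a factor of both naive cells and endoderm, was higher too (2.58 ± 0.17). Pou5f1, which encodes OCT4, was lower with CD1530 (-1.42 ± 0.14), with 33.5 and 31.2 CPM with CD1530, 98.9 and 74.1 CPM with PD0325901 and 64.2 and 38.9 CPM with CHIR, and against CHIR neither agent moved it by the fold required, except that it rose with PD0325901 without the first CHIR library (1.15). Prdm14, a repressor of lineage genes and of DNA methylation, had 0.269 and 0.164 CPM with CD1530 and 1.93 and 1.86 CPM with PD0325901, against 0.173 and 0.141 CPM with CHIR. Tfcp2l1, a naive factor, was not called between the arms (0.49 ± 0.15) and rose against CHIR with CD1530 (1.51 ± 0.16) and with PD0325901 (1.02 ± 0.16, which became 0.92 without the first PD0325901 library and 0.93 without the first CHIR library, under the required fold).

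Of 18 Nodal and Activin pathway genes, none was higher and 8 were lower with CD1530 (1 was higher without the first CD1530 library). Against CHIR, 7 fell and none rose with CD1530, and 5 rose and none fell with PD0325901 (3 without the first PD0325901 library). Nodal, the ligand, had 18.5 and 19.5 CPM with CD1530 and 125 and 110.2 CPM with PD0325901, against 56.3 and 41.7 CPM with CHIR. Tdgf1, its co-receptor Cripto, had 7.44 and 5.71 CPM with CD1530 and 1332 and 915 CPM with PD0325901, against 547 and 454 CPM with CHIR. Lefty2, a secreted inhibitor and target of the pathway, had 1.34 and 1.34 CPM with CD1530 and 132 and 129.6 CPM with PD0325901, against 49.7 and 48.5 CPM with CHIR. All 3 genes ran in the order CD1530, CHIR, PD0325901 with no overlap, at log2 fold changes between the arms of -2.63 ± 0.14, -7.42 ± 0.20 and -6.60 ± 0.18. Lefty1 (-4.68 ± 0.20), Fst, the Activin-binding follistatin (-4.32 ± 0.19), and Gdf3, a Nodal-related ligand (-4.01 ± 0.15), were lower as well. The rise with PD0325901 was near the limit for 3 of these: Tdgf1 fell short of it without the first PD0325901 library (0.85), Lefty1 without that library (0.89) or the second CHIR library (0.74), and Fst without the first CHIR library (0.92).

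Genes outside the lists held 5 of the 8 first places in this class. Ttn, the giant muscle protein titin, ranked first, with 1.93 and 1.71 CPM with CD1530 and 46.5 and 61.1 CPM with PD0325901, against 11.5 and 8.97 CPM with CHIR. H2-M5, a non-classical histocompatibility gene, and Mcf2, a guanine exchange factor, differed by -4.46 ± 0.19 and -4.22 ± 0.15. The non-coding transcript Platr7 and the ubiquitin ligase Trim67 differed by -5.62 ± 0.38 and -6.43 ± 0.64, and the inflammasome gene Nlrc4 by -6.02 ± 0.25; all 3 rose with PD0325901 against CHIR. Platr10 (-6.14 ± 0.23) and Vrtn (-5.96 ± 0.34) were also among the 12 lowest, but with PD0325901 neither was called against CHIR. Without the first CHIR library both were (1.10 for Platr10 and 1.19 for Vrtn), and Platr10 also without the second PD0325901 library (1.09). In S1 the medians of the 81 genes in this class stood at 2.68 CPM, and 50 of the 81 lay nearer to the CD1530 arm and 31 nearer to the PD0325901 arm. Nearness over all tested genes was not counted. Nanog in S1 had 38.2 and 47.2 CPM and Fgf4 had 3.27 and 4.08 CPM.

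Other genes among the lowest between the arms fell with CD1530 and were not called with PD0325901. Otx2, the factor that leads cells out of naive pluripotency, had 0.107 and 0.0822 CPM with CD1530 and 13.7 and 12.2 CPM with PD0325901, against 12.7 and 10.9 CPM with CHIR. Lef1, a partner of β-catenin, had 0.967 and 1.44 CPM with CD1530 and 66.5 and 57.3 CPM with PD0325901, against 72 and 60.4 CPM with CHIR. In both genes the PD0325901 libraries lay beside those of CHIR and the CD1530 libraries far below. Nphs1, the nephrin gene, fell with CD1530 too (-6.71 ± 0.37) and differed by -7.04 ± 0.37 between the arms. Of 15 formative and primed epiblast genes, none was higher and 10 were lower with CD1530, the same 10 fell with CD1530 against CHIR, and none was called with PD0325901, apart from Zic2, which rose without the first CHIR library (1.25) or the second PD0325901 library (1.09). The median log2 fold change of the 15 between the arms was -1.56. They include Zic2 (-3.03 ± 0.14), a zinc finger factor, Fgf5 (-2.48 ± 0.34), the classic marker of the primed epiblast, Pou3f1 (-1.56 ± 0.26) and Sox3 (-1.86 ± 0.27), the last 2 at -1.02 and -1.14 without the first PD0325901 library. Pou3f1 was lower than CHIR with PD0325901 by the fold required when the first PD0325901 library (-1.17) or the second CHIR library (-1.12) was left out, and the fall of Sox3 with CD1530 missed the limit without the first CHIR library (-0.95).

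Of the 34 genes in the 3 retinoid lists, 18 rose and 2 fell with CD1530 against CHIR, and 2 rose and 3 fell with PD0325901 against CHIR. Printed here are the promoters, from 250 bases before to 50 bases after the start, of the 2 genes of the retinoid and Hox lists that hold a DR5 motif, the spaced repeat known as a retinoic acid response element, because both genes were higher with CD1530. Capitals mark the DR5.

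Cyp26a1 (chr19:37697558-37697857, plus strand, GRCm38.p6): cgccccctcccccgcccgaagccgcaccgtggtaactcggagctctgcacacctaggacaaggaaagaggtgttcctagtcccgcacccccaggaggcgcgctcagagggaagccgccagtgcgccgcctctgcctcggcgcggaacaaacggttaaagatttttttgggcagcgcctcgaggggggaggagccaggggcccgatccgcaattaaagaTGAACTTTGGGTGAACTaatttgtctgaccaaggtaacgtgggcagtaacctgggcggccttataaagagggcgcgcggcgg
Rarb (chr14:16575427-16575726, minus strand, GRCm38.p6): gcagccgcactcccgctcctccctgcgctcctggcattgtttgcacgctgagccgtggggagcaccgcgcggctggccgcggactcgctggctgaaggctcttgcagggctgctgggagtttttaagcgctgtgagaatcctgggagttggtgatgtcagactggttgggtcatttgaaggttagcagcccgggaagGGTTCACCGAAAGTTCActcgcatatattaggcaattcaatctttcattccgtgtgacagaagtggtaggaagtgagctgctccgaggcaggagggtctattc

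Both sequences come from RefSeq and run in the direction of the gene. The DR5 was searched as any pair of the half-sites AGGTCA or AGTTCA or GGGTCA or GGTTCA in the same direction with 5 bases between them, on both strands. In Cyp26a1 it spans positions -32 to -16 from the start on the reverse strand, and in Rarb positions -53 to -37 on the forward strand. It occurred in 32 of 32851 RefSeq promoters (0.0974%) and in 2 of 65 promoters that matched 46 of the 73 symbols of the 3 retinoid lists and the Hox list. The DR2, the same half-sites with 2 bases between them, occurred in 88 promoters (0.268%) and in none of the 65. A match says only that these letters stand in the window.

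Cyp26a1, the enzyme that breaks down retinoic acid, had 234 and 221 CPM with CD1530 and 0.633 and 1.01 CPM with PD0325901, against 2.99 and 1.76 CPM with CHIR. It rose by 6.53 ± 0.26 (log2) with CD1530 and fell with PD0325901 (-1.74 ± 0.32). Rarb, the receptor gene that retinoids induce, had 11.8 and 13.1 CPM with CD1530 and 2.72 and 1.78 CPM with PD0325901, against 1.21 and 1.55 CPM with CHIR; it shares 38.4% of its exonic bases with Gm48162 and Top2b. The PD0325901 and CHIR libraries of Rarb stood near each other, well below both CD1530 libraries. Of the 16 genes of retinoid metabolism and transport, 8 were higher and 1 was lower with CD1530. The sister enzymes Cyp26b1 and Cyp26c1 differed by 4.60 ± 0.35 and 6.69 ± 0.46, the retinal reductase Dhrs3 by 3.70 ± 0.21, the retinol importer Stra6 by 3.56 ± 0.20, and the binding protein Crabp2 by 2.00 ± 0.28 (3.20 without the first PD0325901 library and 1.48 without the second). Aldh1a2, which makes retinoic acid, was lower (-1.18 ± 0.21; -0.90 without the first PD0325901 library, under the required fold). Against CHIR the counts were 8 risen and 1 fallen with CD1530, and none risen and 2 fallen with PD0325901 (4 fallen without the first PD0325901 library). Without the first CHIR library Stra6 (1.33) and Crabp2 (1.12) rose with PD0325901.

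The receptor that CD1530 binds, Rarg, was lower with CD1530 than with PD0325901 (log2 fold change -1.05 ± 0.18), with 46.1 and 43.4 CPM with CD1530, 118 and 66.6 CPM with PD0325901 and 83.7 and 43.7 CPM with CHIR. Libraries of CHIR overlapped both arms. The call rested on the first PD0325901 library, without which the value was -0.56. Rara, the α receptor, and Rxra, the common partner, were not called (0.51 ± 0.13 and 0.49 ± 0.14), and of the 6 receptor genes 2 were higher and 1 was lower with CD1530 (1 higher without the first CD1530 or the second PD0325901 library). Of 12 regulators listed as retinoic acid targets, 9 were higher and 1 was lower with CD1530, among them Zfp703 (4.96 ± 0.24), Meis1 (4.88 ± 0.23), a partner of Hox proteins, Tshz1 (4.06 ± 0.18) and Cdx1 (2.24 ± 0.17), an activator of Hox genes. With PD0325901, 2 of the 12 rose and 1 fell against CHIR (4 rose without the first CHIR library, with Zfp703 at 2.14 and Cdx1 at 1.33).

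Hox genes, known targets of retinoids, were also higher with CD1530. Of 38 tested Hox genes, 12 had no count in the 12 libraries of EPSCs, CHIR and its additions, and S1, 18 were higher and none was lower with CD1530. Against CHIR, 18 rose with CD1530 and 2 with PD0325901 (6 without the first CHIR library). Hoxb1, the earliest retinoic acid target of the B cluster, had 70.6 and 70.3 CPM with CD1530 and 17.2 and 11.8 CPM with PD0325901, against 4.81 and 3.16 CPM with CHIR. It rose with both agents (4.11 ± 0.24 with CD1530 and 1.86 ± 0.23 with PD0325901) and was still higher with CD1530 in the direct test (2.26 ± 0.22). Hoxb8 had 18.1 and 16.3 CPM with CD1530 and 0.503 and 0.232 CPM with PD0325901, against 0.173 and 0.211 CPM with CHIR. Hoxc4 (3.44 ± 0.22), Hoxb9 (2.86 ± 0.22) and Hoxb4 (2.92 ± 0.31) differed likewise.

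Leaving CD1530 out of the 4C-64C medium gave a second reading of these genes in libraries that the arms do not share. Both groups were aggregates of S1 cells, which had already received all the small molecules over 2 days. The reading is therefore of 1 day with or without CD1530 after that treatment. Between S2 without CD1530 and S2, 583 of 25056 genes were called (2.33%), 180 higher (0.718%) and 403 lower (1.61%). Of the 34 genes in the 3 retinoid lists, 10 were lower and none was higher without CD1530, and of the 38 Hox genes 9 were lower and 1 was higher. Cyp26a1 had 0.881 and 0.277 CPM in S2 without CD1530, against 3.44 and 5.23 CPM in S2, and Rarb had 0.604 and 0.231 CPM in S2 without CD1530, against 2.32 and 3.99 CPM in S2. Dhrs3 had 2.84 and 3.85 CPM in S2 without CD1530, against 17.9 and 17.2 CPM in S2. The levels of S2 without CD1530 lay below those of S2 in each of these genes, at log2 fold changes of -2.93 ± 0.33, -2.93 ± 0.37 and -2.39 ± 0.21. Stra8, a meiosis gene known for its response to retinoic acid, had 73.7 and 83.2 CPM in S2 without CD1530, against 477 and 456 CPM in S2 (-2.57 ± 0.13), whereas between the arms it was not called (0.84 ± 0.12; 1.06 and called without the first PD0325901 library). Of the 49 endoderm genes, 3 were lower and 1 was higher in S2 without CD1530 than in S2.

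**Figure D4:**
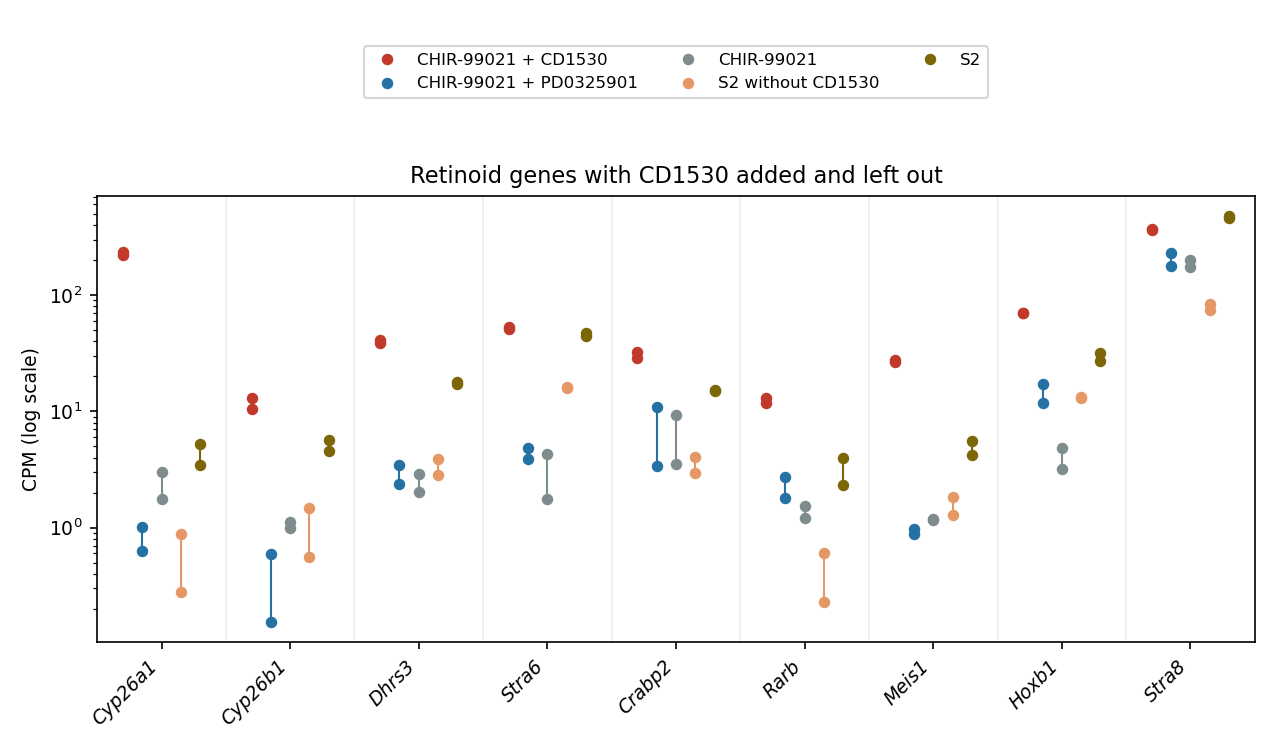
CPM on a log scale in both libraries (points joined by a line) of 9 retinoid genes in EPSCs with CHIR-99021 and CD1530, with CHIR-99021 and PD0325901, and with CHIR-99021, and in aggregates at S2 without CD1530 and at S2. For each gene the CD1530 libraries lie above the PD0325901 and CHIR-99021 libraries, and the S2 libraries lie above those of S2 without CD1530.

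Among genes that report on ERK activity, several fell with both agents. Sprouty and DUSP proteins damp the ERK cascade and are induced by it, and ETV4 and ETV5 are its ETS-family outputs. Of 18 feedback and ETS target genes, 11 fell and 1 rose with CD1530 against CHIR, and 4 fell and none rose with PD0325901. Between the arms 8 were lower and 1 was higher with CD1530, and the median log2 fold change was -0.52. The 18 genes summed to 475 and 474 CPM with CD1530 and to 1356 and 1186 CPM with PD0325901. With CHIR they summed to 1370 and 1215 CPM, and in S1 to 542 and 518 CPM. The 4 that fell with PD0325901 (Spry4, Dusp4, Dusp6 and Etv4) all fell with CD1530 too. Dusp4, an ERK phosphatase, had 10.7 and 11 CPM with CD1530 and 14.1 and 13.4 CPM with PD0325901, against 41.6 and 35.3 CPM with CHIR. Dusp6, the cytoplasmic ERK phosphatase, had 34.5 and 35.5 CPM with CD1530 and 36 and 42.8 CPM with PD0325901, against 79.6 and 89.9 CPM with CHIR. For both genes either arm lay below CHIR without overlap, with the CD1530 libraries lowest.

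Spry4, a feedback inhibitor of receptor signalling, separated the arms, with 3.76 and 3.99 CPM with CD1530 and 16.6 and 17.1 CPM with PD0325901, against 39.3 and 29.3 CPM with CHIR (-2.11 ± 0.18 between the arms). Its fall with PD0325901 missed the limit without the first CHIR library (-0.81), as did the fall of Etv4 with CD1530 (-0.68). Etv5 had 21.2 and 20.2 CPM with CD1530 and 220.2 and 174 CPM with PD0325901, against 132 and 117 CPM with CHIR. Etv1, Epha2, an ephrin receptor, and the growth genes Myc and Ccnd1 went the way of Etv5, with log2 fold changes between the arms of -3.72 ± 0.18, -2.21 ± 0.13, -2.23 ± 0.22 and -2.23 ± 0.11. None of these 5 was called with PD0325901 against CHIR: the log2 fold changes were 0.66 ± 0.09 for Etv5, 0.05 ± 0.15 for Etv1, 0.64 ± 0.12 for Epha2, 0.28 ± 0.21 for Myc and -0.22 ± 0.11 for Ccnd1. Spry2 was not called with either agent (-0.18 ± 0.09 with CD1530 and -0.04 ± 0.09 with PD0325901).

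Of 14 tested immediate early genes, which ERK switches on within minutes, 4 were higher and none was lower with CD1530, and 10 were not called. Egr1, the best known of them, had 7.79 and 7.81 CPM with CD1530 and 1.61 and 0.697 CPM with PD0325901, against 14.5 and 7.42 CPM with CHIR. Both PD0325901 libraries were below the rest, and the CD1530 libraries fell within the range of CHIR. Egr1 fell with PD0325901 (-3.06 ± 0.27, adjusted p = 6.6e-11, edgeR's quasi-likelihood test) and was higher with CD1530 in the direct test (2.55 ± 0.27). For Junb the change with PD0325901 against CHIR was not called (-0.70, adjusted p = 0.090, edgeR's quasi-likelihood test). It was -1.93 without the first PD0325901 library and -1.18 without the second CHIR library. Junb rose with CD1530 against CHIR (1.21), but without the second CHIR library by 0.72 only, under the required fold. Junb (1.92 ± 0.26; 3.15 without the first PD0325901 library), Atf3 (1.47 ± 0.21) and the feedback gene Phlda1 (2.07 ± 0.21) were higher with CD1530. Against CHIR Phlda1 rose with CD1530, short of the limit without the first CHIR library (0.92), and without that library (-1.16) or the first PD0325901 library (-1.09) it fell with PD0325901. Of the 14, against CHIR, 3 rose and 1 fell with CD1530 (5 rose without the first CHIR library), and 1 rose and 2 fell with PD0325901 (4 fell without the first PD0325901 or the second CHIR library). Ier3 fell with both, with 14.8 and 13.9 CPM with CD1530 and 18.5 and 18.1 CPM with PD0325901, against 57.2 and 48.7 CPM with CHIR. Among 14 RAF, MEK and ERK kinase pathway genes, 1 was higher and 2 were lower with CD1530, 21.4% called against 16.6% of all tested genes. Braf (-1.05 ± 0.16) was among the lower, and Mapk3, which encodes ERK1, was the higher (1.09 ± 0.20). Without the second PD0325901 library both missed the limit (-0.82 for Braf and 0.71 for Mapk3), and without the first Mapk3 stood at 1.64. None of the 14 was called with PD0325901 against CHIR. In S2 without CD1530, 6 of the 18 feedback genes were higher than in S2 and none was lower: Dusp4 had 31.4 and 31 CPM in S2 without CD1530, against 10.3 and 9.46 CPM in S2, and Spry4 had 72.8 and 74.6 CPM in S2 without CD1530, against 16.9 and 14.1 CPM in S2.

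Beyond the ERK genes, the genes most lowered by both agents included Pdk1, a brake on pyruvate oxidation. It had 87.1 and 91.4 CPM with CD1530 and 302 and 365 CPM with PD0325901, against 714 and 845 CPM with CHIR. The libraries of the 3 groups did not overlap, and Pdk1 was lower with CD1530 than with PD0325901 (-1.90 ± 0.11). Tub, Tdrd5 and Zfp365 fell in both arms, and no difference between the arms reached the required fold (-0.12 ± 0.13, -0.41 ± 0.17 and -0.65 ± 0.12). Dmrtb1 fell with CD1530 (-2.06 ± 0.29) and with PD0325901 (-1.37 ± 0.28), the last of which missed the limit without the first CHIR library (-0.35) or the second PD0325901 library (-0.91). Between the arms Dmrtb1 was not called, but it was without the second PD0325901 library (-1.15). S1 lay below all 4 libraries of the arms in 28 of the 79 genes that both agents lowered, and above all 4 in 12. The same shares over all tested genes were not counted.

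**Figure D5:**
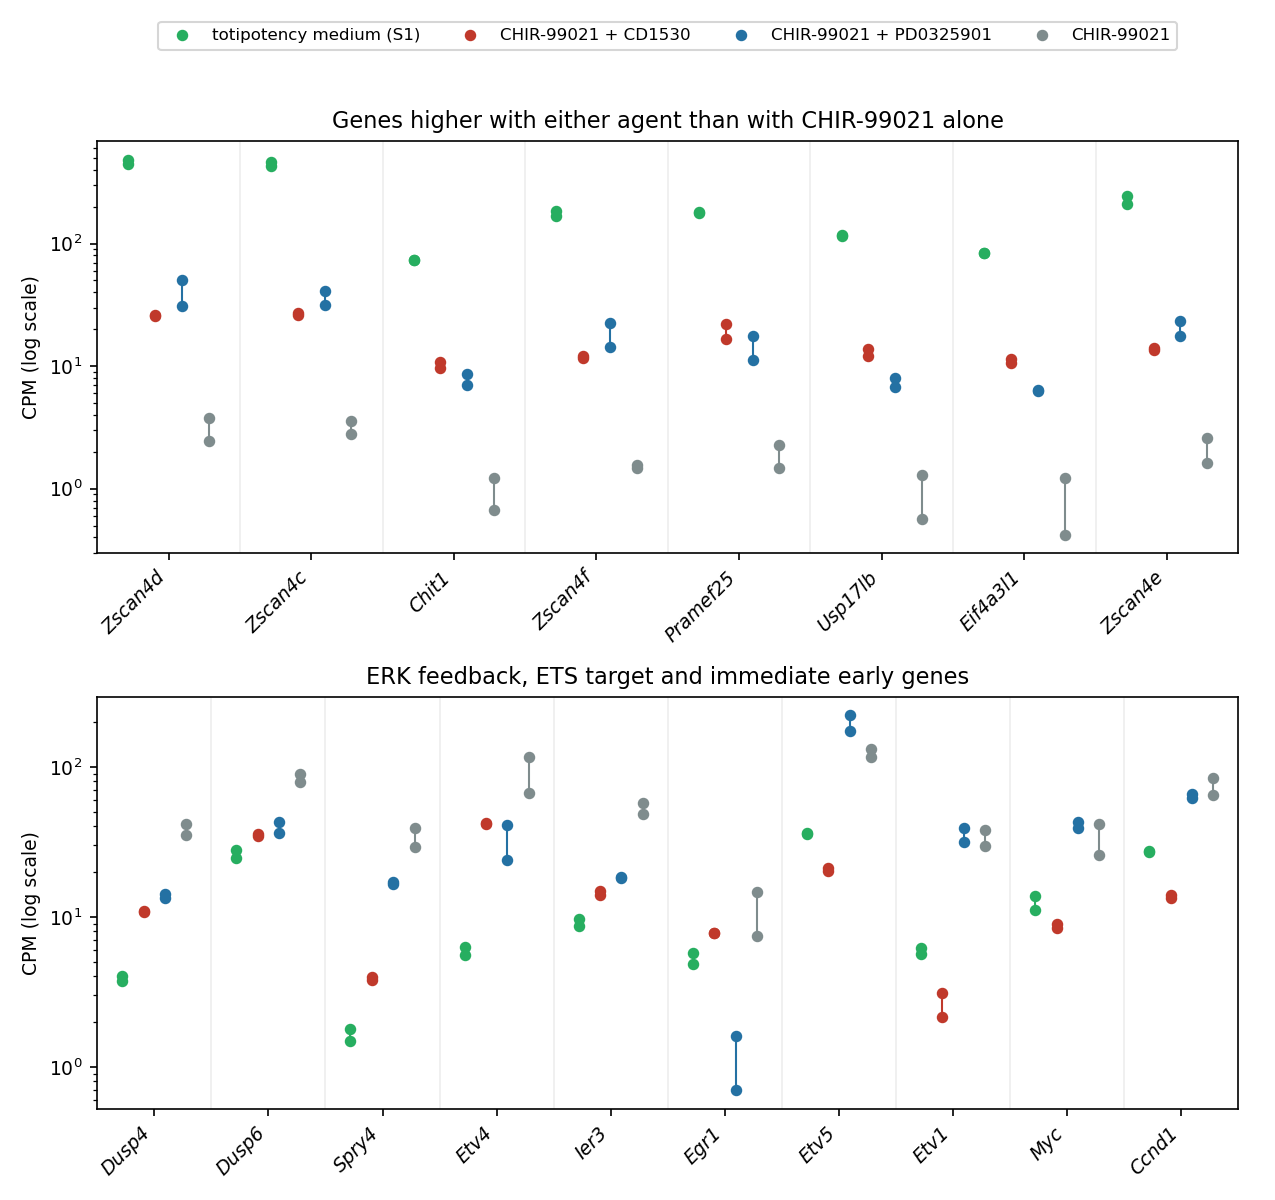
CPM on a log scale in both libraries (points joined by a line) of S1, of CHIR-99021 with CD1530, of CHIR-99021 with PD0325901, and of CHIR-99021 alone. In the upper panel the 8 genes most raised by both agents lie highest in S1, with the arms beside each other and CHIR-99021 lowest. In the lower panel Dusp4, Dusp6, Etv4 and Ier3 lie low in both arms. Etv5, Etv1, Myc and Ccnd1 lie lower with CD1530 than with PD0325901 or CHIR-99021 alone. Egr1 lies lower with PD0325901 than with CD1530 or CHIR-99021 alone.

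Most genes of the 2-cell list rose with both agents. Genes of this list are expressed in a burst when the mouse zygotic genome is activated, and in rare cells of stem cell cultures. Of 32 tested members, 26 rose with CD1530 and 21 rose with PD0325901 against CHIR, none fell with either, and all 21 were among the 26. Zscan4d, a member of the telomere-associated Zscan4 cluster, had 25.6 and 26 CPM with CD1530 and 31.1 and 50.5 CPM with PD0325901, against 2.43 and 3.8 CPM with CHIR. Zscan4c had 26.2 and 27.3 CPM with CD1530 and 31.6 and 41 CPM with PD0325901, against 2.82 and 3.59 CPM with CHIR. For both genes all 4 libraries of the arms lay far above those of CHIR, and the PD0325901 libraries above those of CD1530. None of Zscan4a to Zscan4f was called between the arms: the log2 fold changes were -0.65 ± 0.16 for Zscan4d (adjusted p = 0.0013, edgeR's quasi-likelihood test, short of the required fold), -0.43 ± 0.14 for Zscan4c, -0.55 ± 0.21 for Zscan4e and -0.60 ± 0.23 for Zscan4f. These cluster members are near-identical copies, and how the authors' counting split their reads is not known.

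Pramef25, Usp17lb and Eif4a3l1, from other multicopy families of the 2-cell stage, and Chit1, a chitinase that is not in the list, rose with both agents to levels that did not differ between the arms by the fold required (0.45 ± 0.18, 0.81 ± 0.28, 0.80 ± 0.22 and 0.40 ± 0.22). Between the arms 4 of the 32 genes were higher and 2 were lower with CD1530; only 2 were higher without the first CD1530 library or without the second PD0325901 library. The 2 lower ones were Dppa2 (-1.28 ± 0.10) and Dppa4 (-1.03 ± 0.12), activators of this programme, neither of which was called against CHIR. Dppa4 missed the limit between the arms without the first PD0325901 library (-0.86) and fell with CD1530 without the second CHIR library (-1.13); Dppa2 rose with PD0325901 without the second PD0325901 library (1.02) or the first CHIR library (1.00). Pramel7, one of the 4, had 238 counts with CD1530 and none with CHIR, at least 68.9-fold higher with CD1530 taking the same floor. In S1 the programme stood far above both arms: Zscan4d had 444 and 484 CPM and Zscan4c had 429 and 463 CPM there. Over all 464 genes that both agents raised, both S1 libraries exceeded all 4 libraries of the arms in 413, and the median S1 level was 14.4 CPM. How often S1 exceeded the arms over all tested genes was not counted. Of the 464, 200 carry predicted gene names.

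Of 24 trophectoderm genes, 11 were higher and 3 were lower with CD1530 than with PD0325901, and 10 were not called. This was 58.3% called, against 16.6% of all tested genes, although 9 of the 24 rose with both agents. Against CHIR, 16 rose and none fell with CD1530, and 12 rose and 1 fell with PD0325901. Gata3, a founding factor of the outer cell layer, had 2.93 and 3.54 CPM with CD1530 and 3.44 and 2.86 CPM with PD0325901, against 0.238 and 0.211 CPM with CHIR. Krt8, a keratin of simple epithelia, had 357 and 354 CPM with CD1530 and 148 and 135 CPM with PD0325901, against 51.1 and 36.4 CPM with CHIR. Gata3 was not called between the arms (0.02 ± 0.24, an estimate whose sign turned in 5 of the alternative fits), whereas Krt8 was higher with CD1530 (1.33 ± 0.13). Krt18, its partner, differed by 1.70 ± 0.12. Gata2 was lower with CD1530 (-1.08 ± 0.19; -0.60 without the first PD0325901 library, under the required fold), and Tfap2c and Plac1, a placental gene, were not called between the arms. Cdx2, the trophectoderm and hindgut factor, rose with CD1530 and was not called with PD0325901, with 7.74 and 9.04 CPM with CD1530 and 1.68 and 0.697 CPM with PD0325901, against 1.39 and 0.844 CPM with CHIR. Krt19 went opposite ways, to 80.6 and 76.3 CPM with CD1530 and 13.2 and 8.2 CPM with PD0325901, against 28.4 and 15.9 CPM with CHIR, but its fall with PD0325901 missed the limit without the first CHIR library (-0.53) or the second PD0325901 library (-0.75).

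Of 21 BMP ligands and targets, 10 were higher and none was lower with CD1530 than with PD0325901. Against CHIR, 11 rose and none fell with CD1530, and 5 rose and 2 fell with PD0325901. The 2 that fell were ligands: Bmp2 had 8.71 and 9.37 CPM with CD1530 and 0.447 and 0.619 CPM with PD0325901, against 0.997 and 1.55 CPM with CHIR, and Bmp6 had 23.8 and 23 CPM with CD1530 and 4.26 and 3.91 CPM with PD0325901, against 9 and 8.79 CPM with CHIR. The call for Bmp2 with PD0325901 was lost without the first PD0325901 library (adjusted p = 0.19) or the second CHIR library (adjusted p = 0.098) in edgeR's quasi-likelihood test. Id2, a target of the pathway, rose with both agents: it had 25.6 and 26.8 CPM with CD1530 and 19.9 and 23.2 CPM with PD0325901, against 4.25 and 3.66 CPM with CHIR, and was not called between the arms (0.29 ± 0.17). Id3 (0.32 ± 0.17) was likewise not called, and Msx2 (1.39 ± 0.19) and Msx1 (2.98 ± 0.21) were higher with CD1530. Id1 rose with CD1530 (2.94 ± 0.20) and was not called with PD0325901 (0.52 ± 0.21).

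Of 22 germline and meiosis genes 1 was higher and 13 were lower between the arms (8 lower without the second libraries of both CHIR and the PD0325901 arm), and 8 were not called. Against CHIR, 1 rose and 6 fell with CD1530, and 5 rose and none fell with PD0325901 (1 rose without the second PD0325901 library and 3 without the first CHIR library). Hormad1, a protein of the meiotic chromosome axis, had 1.5 and 1.91 CPM with CD1530 and 12.1 and 16.8 CPM with PD0325901, against 5.14 and 8.68 CPM with CHIR. Its rise with PD0325901 missed the limit without the second PD0325901 library (0.83) or the first CHIR library (0.70). Mael (-1.35 ± 0.10) and Dazl (-1.52 ± 0.20), of the piRNA and germ cell RNA-binding machinery, were lower with CD1530. Of 11 genes of DNA methylation none was higher, 5 were lower and 6 were not called between the arms (1 was higher without the first PD0325901 library). Dnmt3b, a de novo methyltransferase, had 175 and 181 CPM with CD1530 and 440.3 and 455 CPM with PD0325901, against 514 and 537 CPM with CHIR, and was called against CHIR with CD1530 and not with PD0325901 (-0.23 ± 0.08). Dnmt3l, its cofactor, had 352 and 345 CPM with CD1530 and 883 and 727 CPM with PD0325901, against 459 and 322 CPM with CHIR, so that its difference between the arms (-1.21 ± 0.14) lay on the side of PD0325901; the rise there (1.04 ± 0.14) missed the limit without the first PD0325901 library (0.88) or the second CHIR library (0.81). Tet1, a 5-methylcytosine dioxygenase, was lower with CD1530 (-2.07 ± 0.16).

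FGF ligands differed in both directions. Fgf3 and Fgf10 were higher with CD1530 (2.55 ± 0.37 and 4.73 ± 0.30), and Fgf4, Fgf5 and Fgf8 were lower, with -3.42 ± 0.47 for Fgf8. Against CHIR neither Fgf3 nor Fgf8 was called with PD0325901, but without the first CHIR library both rose (1.96 and 1.68). In all 5 of 13 FGF ligand and receptor genes were higher and 4 were lower. Fgf10 had 14.2 and 15.5 CPM with CD1530 and 0.624 and 0.387 CPM with PD0325901, against 0.824 and 0.774 CPM with CHIR. Of 15 primitive streak genes 5 were higher and 6 lower with CD1530. T (Brachyury) and Mixl1, which mark the nascent streak, were lower (-2.57 ± 0.33 and -2.01 ± 0.35), as was the ligand Wnt3 (-2.18 ± 0.28), and Eomes and Cdx2, which other lineages express too, were higher (1.05 ± 0.17 and 2.63 ± 0.35). Eomes missed the limit without the second CD1530 library (0.99) or the second PD0325901 library (0.82). Of 18 Wnt targets, which CHIR-99021 itself can raise, 3 were higher and 3 lower, 33.3% called against 16.6% of all tested genes, with 5 higher without the first PD0325901 library, and Axin2, the most general of them, was not called (0.48 ± 0.15).

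Of 16 neural genes 4 were higher and 3 lower with CD1530 (2 higher without the second CD1530 library), and of 15 epithelial and mesenchymal genes 4 were higher and 1 was lower (none lower without the first CD1530 or the second PD0325901 library). Of 16 p53 targets 4 were higher and 1 was lower. Of 20 cholesterol synthesis genes none was higher and 1 was lower, but 3 were higher and 2 lower without the first PD0325901 library, and none was called without the second. Of 19 mitotic genes none was higher and 2 were lower, with 1 higher without the first PD0325901 library and 1 lower without the second. Over all tested genes 8.52% were higher and 8.03% lower.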

How the data were processed

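The table holds whole-number read counts per gene for 52 mouse libraries, deposited by the authors without normalization. Per the submitters' processing notes, Trimmomatic 0.39, STAR 2.7.10b and featureCounts 2.0.6 were used with mm10. Whether strand was used in counting is not stated by the sources available. In the 4 libraries of the arms 71.3 to 80.5% of low counts were even, as if both mates had been counted, so counts understate the sampling error.

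From the counts, edgeR 4.0.16 (R 4.3.3, limma 3.58.1) was used with TMM factors, filterByExpr (25056 of 55291 genes kept) and 1 mean for each of 26 groups over all 52 libraries, so that all groups share the estimate of spread. Each comparison was a contrast in its quasi-likelihood F test with Benjamini-Hochberg adjustment. Standard errors are the log2 fold change over the square root of F. CPM values use TMM-scaled library sizes. Intervals and floors cover counting error only, and they take each count as separate, so they understate that error where both mates were counted. Nearness of S1 to an arm was judged on log2(CPM + 0.1). Exon overlap came from GENCODE M21 (53186 symbols matched) and promoters from RefSeq on GRCm38.p6.

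The libraries compared and the 27 gene lists were chosen with earlier results of these data known. Named genes were the 12 highest and 12 lowest fold changes between the arms among called genes, the 8 largest changes in each of the 4 classes (both with 10 CPM or more in either arm and without predicted genes), and list members with small adjusted p or described by role. Some genes that this rule takes in are not reported here. The code was tested on simulated counts. Alternatives were RLE factors, no filter, DESeq2 1.42.0, smaller sets of libraries, halved counts, the newer edgeR dispersion method, a replicate term, no minimum fold, other baselines, and each library left out.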

Additional observations from a re-analysis of the deposited data

Results flagged for a closer look

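The effect of CD1530 on 2 retinoid genes differed between aggregates at S2 (S2 minus S2 without CD1530) and EPSCs (CHIR-99021 and CD1530 minus CHIR-99021), by a test of the difference itself. For Cyp26a1 the effect at S2 minus that in EPSCs was -3.61 on the log2 scale (adjusted p = 3.0e-07, edgeR's quasi-likelihood test). For Stra8 it was 1.59 (adjusted p = 6.4e-09, the same test). Both effects of Cyp26a1 were rises, the smaller one at S2, and Stra8 passed the call at S2 and fell just short of it in EPSCs (0.98, with 1.07 and a call without the first CHIR library). Rarb and Crabp2 were tested in the same way and did not pass. The stages differ in medium, time and number of compounds as well, and the part of these in the difference was not tested.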

How the results depend on the processing

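Of 136 named genes, 106 kept direction and call between the arms under every alternative, and no called gene reversed. With only the 6 libraries of CHIR and both arms in the fit, PD0325901 changed 442 genes. The 4 classes fell to 43 (raised by CD1530, lowered by PD0325901), 35 (the reverse), 217 (both raised) and 25 (both lowered). This fit has fewer degrees of freedom, and it takes its spread from these groups alone, of which CHIR and PD0325901 varied most between libraries. The part of each was not tested. Crabp2, Eomes, Gata2, Junb, Mapk3, Pou3f1, Rarg and Sox3 lost their calls between the arms in that fit (adjusted p = 0.056 to 0.10, edgeR's quasi-likelihood test). With no minimum fold, 4704 genes were higher and 4631 lower between the arms, CD1530 changed 9348 and PD0325901 2708, and the classes held 293, 309, 838 and 458. The newer edgeR method gave 139 genes lowered by both, and CHIR with Elvitegravir as the baseline for both gave 124; the cause was not tested. With that baseline for PD0325901 only, the opposite classes held 128 and 206.

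Leaving out each library in turn gave 1583 to 2910 genes higher and 1462 to 2106 lower between the arms, 2946 to 5274 changed by CD1530 and 1095 to 1371 by PD0325901, and classes of 64 to 151, 62 to 97, 414 to 737 and 67 to 98. Genes not called between the arms changed sign. Gata3 was -0.000875 with halved counts, -0.0061 with the newer edgeR method and -0.067 without the second libraries of CHIR and PD0325901, an alternative chosen after seeing the data. Over single libraries left out, Gata3 ran from -0.13 to 0.20, Dmrtb1 from -1.15 to 0.13, Plac1 from -0.066 to 0.36, Tfap2c from -0.14 to 0.084 and Tub from -0.22 to 0.013.

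With a replicate block, 2318 genes were higher and 1992 lower between the arms, and of the named genes only Rarg lost its call (-0.97). Same-numbered libraries deviated together in PD0325901 and CHIR (r = 0.43) but not in CD1530 and CHIR (r = 0.04) or in the arms (r = 0.05). The numbers thus did not pair in every comparison, and the main fit held no term for the deviation that PD0325901 and CHIR shared. DESeq2 called 2114 higher and 2089 lower. At 2 libraries a group, differences with PD0325901 or CHIR near the required fold are the least certain.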
